A study of Rattus norvegicus with 36 samples.

Results

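The genes described here are the heat shock proteins and J-domain chaperones of the rat array: every probe set (a group of oligonucleotides that measures 1 transcript) whose only annotated symbol starts with Hspa, Hspb, Hspd, Hspe, Hsph, Hsp90, Dnaja, Dnajb or Dnajc. This rule gave 98 of the 31099 probe sets on the array, which stand for 64 genes. A further 6 probe sets with such a symbol carried several symbols and were left out. Hspa8, Hsp90aa1 and Hspa1b have probe sets with several symbols, so these cytosolic chaperones are not covered here. Of the 98 probe sets, 79 passed the filter on dim signals, and they cover 57 genes. The 7 genes without a probe set past the filter were Hspa12a, Hspa1l, Hspb2, Hspb3, Dnajb3, Dnajb7 and Dnajb13. Where several probe sets of a gene passed, the brightest stands for the gene. The rule uses names and no measured value. The prefix also takes in Hspbp1 and Hspbap1, which are not small heat shock proteins.

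The arrays hold 33 mammary cancers and 3 normal mammary tissues of female Sprague-Dawley rats. The 3 spontaneous cancers came from untreated rats. Others came from rats given 1 Gy of whole-body gamma rays at 7 weeks of age (4 cancers), from rats injected with 40 mg/kg of the alkylating carcinogen MNU (5 with mutated and 4 with nonmutated H-ras), and from rats given 40 mg/kg/day of PhIP, a heterocyclic amine formed in cooked meat, by gavage (1 mutated, 3 nonmutated). Radiation of 1 Gy followed after 3 days by MNU gave 5 mutated and 4 nonmutated cancers, and radiation followed by PhIP gave 4 nonmutated cancers. From 9 weeks of age every rat, untreated ones included, was kept on an AIN-76A diet with 23.5% corn oil. The spontaneous and radiation-only cancers were H-ras nonmutated, and the normal tissue came from untreated rats. Each array measured RNA of whole tissue, so fewer cells of a type and less RNA per cell cannot be told apart. Nothing in the labels ties cancers to individual rats, so the p-values measure the spread between these samples, which may share an animal.

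Chaperones bind proteins that are not yet, or no longer, folded. HSP70 proteins (the Hspa genes) clamp onto such chains with ATP, J-domain proteins (the Dnaj genes) deliver the chains and trigger the ATP hydrolysis, and relatives of the HSP110 type (Hsph1, Hspa4, Hspa4l) release the ADP so that the cycle can start again. HSP90 completes the folding of kinases and steroid receptors, the chaperonin of Hspd1 and Hspe1 folds proteins inside mitochondria, and small heat shock proteins (Hspb) hold unfolded chains without ATP. The factor HSF1 switches on the cytosolic set after proteotoxic stress through heat shock elements in the promoters. The endoplasmic reticulum (ER) keeps a set of its own, led by Hspa5 (BiP), which the unfolded protein response induces through ER stress elements.

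Promoter sequences of 53 of the 64 genes were present in the RefSeq windows used (assembly GRCr8, 250 bases before and 50 bases after the start). A heat shock element of 3 units, GAA, TTC and GAA with 2 free bases between neighbours (TTC, GAA and TTC on the other strand), was found in 4 of the 53 windows (7.55%), those of Hsph1, Hspe1, Hspd1 and, after the start, Dnaja1, and in 267 of 33469 windows in the whole table (0.798%). A pair of units, GAANNTTC or TTCNNGAA, which every 3-unit element also contains, was found in 14 member windows (26.4%) and in 15.9% of all windows. The ER stress element, CCAAT and CCACG with 9 free bases between (CGTGG and ATTGG on the other strand), was found in 3 member windows (5.66%), those of Hspa5, Hsp90b1 and Dnajc3, and in 22 of all windows (0.0657%). These matches describe letters in a window and show no binding. The 190 bases before the start are shown for 5 genes with a 3-unit heat shock element or an ER stress element there. The matched element is in capitals. Hsph1 lies at chr12:10427178-10427367 (plus strand), Hspe1 at chr9:64084137-64084326 (plus strand), Hspa5 at chr3:38452826-38453015 (plus strand), Hsp90b1 at chr7:23012294-23012483 (minus strand) and Dnajc3 at chr15:102432477-102432666 (plus strand), and each is written 5′ to 3′ on the strand of its gene.
Hsph1: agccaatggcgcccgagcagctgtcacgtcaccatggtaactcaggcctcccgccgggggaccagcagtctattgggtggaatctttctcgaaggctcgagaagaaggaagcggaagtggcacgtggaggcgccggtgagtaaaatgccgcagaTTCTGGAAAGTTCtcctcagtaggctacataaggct
Hspe1: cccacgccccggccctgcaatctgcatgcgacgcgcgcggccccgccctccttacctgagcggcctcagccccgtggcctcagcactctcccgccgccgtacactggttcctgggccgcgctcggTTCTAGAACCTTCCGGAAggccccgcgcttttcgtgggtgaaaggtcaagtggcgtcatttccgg
Hspa5: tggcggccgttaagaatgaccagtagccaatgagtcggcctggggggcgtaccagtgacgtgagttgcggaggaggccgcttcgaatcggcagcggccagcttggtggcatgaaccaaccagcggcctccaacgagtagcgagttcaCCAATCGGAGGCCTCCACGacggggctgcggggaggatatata
Hsp90b1: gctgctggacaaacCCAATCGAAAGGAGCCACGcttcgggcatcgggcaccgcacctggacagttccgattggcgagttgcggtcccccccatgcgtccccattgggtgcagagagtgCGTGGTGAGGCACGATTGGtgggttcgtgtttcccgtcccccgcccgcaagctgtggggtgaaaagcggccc
Dnajc3: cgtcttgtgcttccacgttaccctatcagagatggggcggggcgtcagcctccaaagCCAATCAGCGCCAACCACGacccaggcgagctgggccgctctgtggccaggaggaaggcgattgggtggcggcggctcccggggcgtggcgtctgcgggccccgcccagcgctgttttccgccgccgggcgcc
In the Hspe1 window the capitals cover 2 overlapping 3-unit matches, and Hsp90b1 carries 2 ER stress elements, in opposite orientation. Hspd1 and Hspe1 are transcribed away from each other on chromosome 9 from start sites 290 bases apart, so the element printed for Hspe1 also lies in the Hspd1 window.

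Array medians lay between 7.67 and 8.05 on the log2 scale used throughout, log2(intensity + 42.8). On 2 arrays a quality value or the top of the range stood apart. The nonmutated MNU cancer replicate 4 had a 3′ to 5′ ratio of 12.3 for hexokinase, against 1.66 for the lowest array, a sign of shortened RNA. Normal tissue replicate 3 reached an intensity of 32544. It also had the highest 3′ to 5′ ratio of all arrays for beta-actin (1.71) and a ratio of 1.23 for GAPDH, while its hexokinase ratio was 2.39. Where leaving out either array ended a call of all cancers against normal tissue, or moved an H-ras difference named within MNU, the value without it is given below. The normal tissue carried the fat of the mammary pad: the mean of 12 adipocyte markers was 10.94 to 11.50 on the normal arrays and 7.34 to 8.59 on the cancers, with 11 of the 12 lower in the cancers. All 8 endothelial markers were lower in the cancers, and their mean was 9.71 to 10.07 on the normal arrays and 8.12 to 9.42 on the cancers. Of 15 luminal epithelial markers 9 were higher and 1 lower, and their mean was 10.47 to 11.02 on the normal arrays and 10.80 to 11.47 on the cancers. Of 12 macrophage markers 6 were lower and none higher. Of 11 basal and myoepithelial markers 3 were higher and 1 lower, and of 11 T and NK cell and 12 skeletal muscle markers none passed. The part of these shifts in the differences below was not tested.

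Comparing the 33 cancers with the 3 normal tissues asked which chaperones differ in cancer as a whole. Among the genes past the threshold, Hspa4, Hspb8, Dnajb5, Dnajc12, Dnaja4 and Dnajc9 were the furthest above normal. Dnajc6, Hspa12b, Dnajc3 and Hspa5 were the furthest below it. Dnajb5 was dim and passed the filter through cancers alone, as described below. Of the 57 genes, 18 (31.6%) passed an adjusted p of 0.05 with limma, against 34.4% of all 11773 genes. Of these, 10 rose (17.5% of the members, against 18% of all genes) and 8 fell (14%, against 16.3%). The median difference over the members was 0.00 on the log2 scale, beside 0.02 over all genes, with 28 members above 0 and 29 below it. Of the 57, 3 differed by more than 2-fold, and the share of all genes that did so was not computed. As a class, the chaperones covered here were therefore called about as often as any gene on the array.

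**Figure D1:**
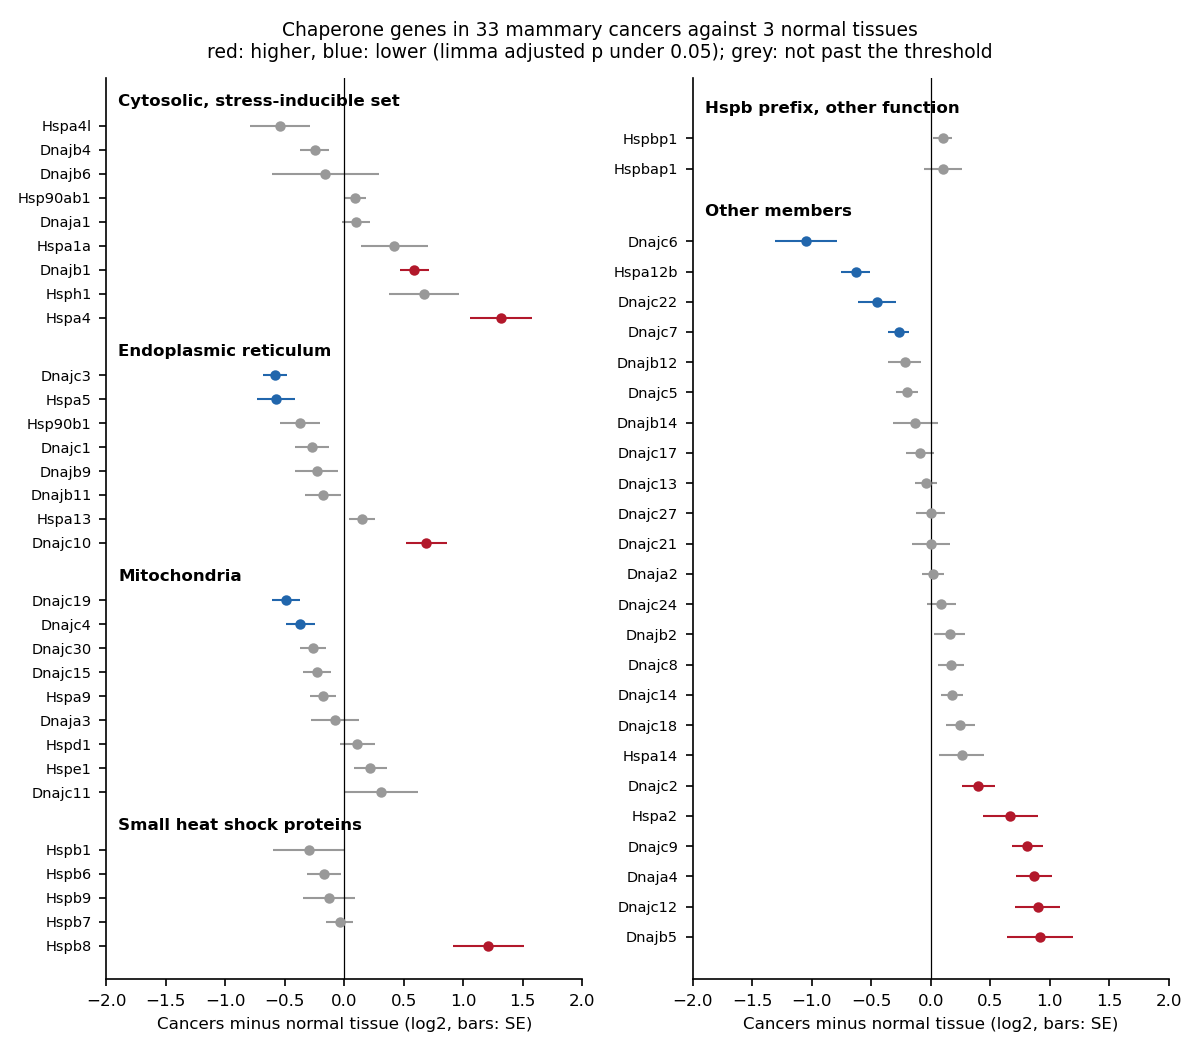
Difference between the mean of the 33 cancers and the mean of the 3 normal tissues for each of the 57 chaperone genes, in log2 units, with its SE as a bar. Genes are grouped by compartment or role; 10 genes past the threshold lie to the right of 0 (red), 8 to the left (blue), and the other 39 (grey) did not pass.

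Among 9 measured genes of the cytosolic, stress-inducible list, 2 rose and none fell, with a median difference of 0.10. Beside this list and those below, 18% of all genes rose and 16.3% fell in the same comparison. The name of the list does not hold for each gene in it, as Hsp90ab1 is the constitutive HSP90. Hspa4, an HSP110-type exchange factor, had the largest rise. Its level was 9.58, 9.49 and 9.54 in the normal tissues and ran from 8.96 over a median of 10.96 to 11.55 in the cancers. The difference was 1.32 ± 0.26 on the log2 scale (SE; adjusted p = 0.000255), and 32 of 33 cancers lay above all 3 normal tissues. The 1 cancer below them all was replicate 1 of the H-ras mutated radiation plus MNU group. Dnajb1, the main cytosolic J-domain partner of inducible HSP70, was at 10.33, 10.25 and 10.36 in normal tissue and between 10.44 and 11.26 in the cancers, with a median of 10.91. All 33 cancers exceeded all normal tissues, by 0.59 ± 0.12 on average (adjusted p = 0.000529). A second Dnajb1 probe set differed by 0.04 ± 0.13 (adjusted p = 0.841), so the rise was seen with 1 of the gene's 2 probe sets.

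The other 7 genes of the list did not pass. Hsph1, the cytosolic HSP110, was at 10.5, 10 and 10.35 in normal tissue and from 9.46 to 12.24 in the cancers with a median of 11.07. Its difference was 0.67 ± 0.29 (adjusted p = 0.0746), and a second probe set gave 1.01 ± 0.35 (adjusted p = 0.0261). Without replicate 1 of the mutated radiation plus MNU group, Hsph1 passed (0.72, adjusted p = 0.0322), as it did with the mean of both probe sets (0.84, adjusted p = 0.0387). Hspa1a, the stress-inducible HSP70, differed by 0.42 ± 0.28 (adjusted p = 0.25). Hsp90ab1, the constitutive cytosolic HSP90, differed by 0.09 ± 0.09 (adjusted p = 0.481) with its brightest probe set and by 0.45 ± 0.10 (adjusted p = 0.000993) with the other. After quantile normalization the brightest probe set of Hsp90ab1 gave 0.36 (adjusted p = 0.000205). Values for Hspa4l, Dnajb4, Dnajb6 and Dnaja1 were -0.54 ± 0.25, -0.25 ± 0.12, -0.16 ± 0.45 and 0.10 ± 0.12.

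The ER list moved in both directions: of 8 measured genes 2 fell and 1 rose, with a median of -0.25. Dnajc3 (p58IPK), a J-domain helper of BiP that also restrains the stress kinase PERK, was at 10.25, 10.41 and 10.53 in normal tissue and between 9.52 and 10.22 in the cancers, with a median of 9.78. All 33 cancers lay below all 3 normal tissues, and the fitted difference was -0.58 ± 0.10 (adjusted p = 3.4e-05). Hspa5, the ER HSP70, was at 13.43, 13.09 and 13.97 in normal tissue and between 12.45 and 13.45 in the cancers, with a median of 12.89. It fell by 0.57 ± 0.16 (adjusted p = 0.0077), and 23 of 33 cancers lay below all normal tissues. The highest Hspa5 level belonged to normal replicate 3. Without that array the Hspa5 difference was -0.33 (adjusted p = 0.197), and after quantile normalization it was -0.30 (adjusted p = 0.109). Dnajc10 (ERdj5), a J-domain protein that reduces disulfide bonds, rose: 10.06, 9.56 and 9.57 in normal tissue against 9.79 to 11.26 in the cancers, with a median of 10.44. Its difference was 0.69 ± 0.17 (adjusted p = 0.00193), 31 of 33 cancers lay above all normal tissues, and its second probe set gave 0.36 ± 0.12 (adjusted p = 0.0199). Hsp90b1, the ER HSP90, differed by -0.37 ± 0.17 (adjusted p = 0.0895) and did not pass. Its normal levels were 12.83, 12.50 and 13.47, and the difference was -0.58 (adjusted p = 0.0284) without normal replicate 2 and -0.10 (adjusted p = 0.745) without replicate 3. Differences of the other 4, Dnajc1, Dnajb9, Dnajb11 and Hspa13, were -0.27, -0.23, -0.18 and 0.15.

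Of 9 measured mitochondrial genes, 2 fell and none rose, with a median of -0.18. Dnajc19, a J-domain protein of the inner membrane linked to protein import, was at 11.07, 11.37 and 10.94 in normal tissue and between 10.27 and 11.01 in the cancers, a fall of 0.49 ± 0.12 (adjusted p = 0.00161). It was lower than all normal tissues in 31 of 33 cancers. Dnajc4 fell by 0.37 ± 0.12 (adjusted p = 0.0172), with 28 of 33 cancers below all normal tissues, and it was at -0.30 (adjusted p = 0.139) without normal replicate 3. The chaperonin pair was close to normal, at 0.11 ± 0.15 for Hspd1 and 0.22 ± 0.14 for Hspe1. Hspa9 (mortalin), the mitochondrial HSP70, differed by -0.18 ± 0.11 with its brightest probe set. Its 3 other probe sets gave 0.01, 0.94 and -0.31, so the mitochondrial HSP70 has no agreed direction on this array. The others, Dnajc30, Dnajc15, Dnaja3 and Dnajc11, lay between -0.26 and 0.31.

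Among 5 measured small heat shock proteins, Hspb8 alone passed. Hspb8, which works with the co-chaperone Bag3 in the clearance of misfolded proteins, was at 8.66, 9.29 and 8.73 in normal tissue and between 9.19 and 11.31 in the cancers, with a median of 10.14. It rose by 1.21 ± 0.30 (adjusted p = 0.00233), 29 of 33 cancers lay above all normal tissues, and a second probe set gave 0.96 ± 0.27 (adjusted p = 0.00696). Hspb1, an abundant small heat shock protein of epithelial and muscle cells, differed by -0.30 ± 0.30 (adjusted p = 0.461). Hspb6, Hspb7 and Hspb9 lay at -0.17, -0.04 and -0.13, and a second Hspb7 probe set gave -0.65 ± 0.22 (adjusted p = 0.0244). Neither Hspbp1 nor Hspbap1, both at 0.10, passed.

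The other 24 genes held 6 rises and 4 falls, with a median of 0.06. Dnajc9, a J-domain protein that also chaperones histones, was at 10.75, 10.31 and 10.25 in normal tissue and between 10.76 and 11.78 in the cancers, with a median of 11.23. Its rise of 0.81 ± 0.13 (adjusted p = 1.75e-05) had the smallest adjusted p of all members, and all 33 cancers exceeded the normal tissues. Dnaja4 was at 10.23, 9.88 and 10.08 in normal tissue and at 10.40 or above in every cancer, a rise of 0.87 ± 0.15 (adjusted p = 5.34e-05) that its second probe set gave as 0.88 ± 0.22. Dnajc12, a J-domain partner of the aromatic amino acid hydroxylases, was at 8.22, 8.27 and 8.21 in normal tissue and between 8.46 and 9.74 in the cancers, a rise of 0.90 ± 0.19 (adjusted p = 0.000642). For these 3 genes, and for Dnajb1, the cancers and the normal tissues did not overlap. Those 4 genes are 7.02% of the members, against 3.94% of all genes.

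Dnajb5 (0.92 ± 0.28, adjusted p = 0.0123), Hspa2, an HSP70 abundant in the testis (0.67 ± 0.23, adjusted p = 0.0256), and Dnajc2, a J-domain protein that binds ribosomes (0.40 ± 0.14, adjusted p = 0.0238), also rose. Each overlapped the normal tissues: 27, 29 and 13 of 33 cancers lay above all of them. The Dnajb5 probe set exceeded the filter limit on 18 of 36 arrays, none of them normal tissue. Its normal levels were 6.16, 6.22 and 7.06. Other Dnajb5 probe sets did not pass the filter, with means of 6.83 and 6.12 in cancers and 6.80 and 5.86 in normal tissue. Dnajb5 missed the threshold at 0.76 without normal replicate 1 and at 0.79 without replicate 2, and Hspa2 at 0.63 without replicate 2 and 0.57 without replicate 3, so these differences moved by less than 1 SE. Dnajc2 was at 0.42 without replicate 3 (adjusted p = 0.0679) but at 0.15 without replicate 2 (adjusted p = 0.482). It also missed the threshold after quantile normalization (0.32, adjusted p = 0.0626) and median centring (0.36, adjusted p = 0.0567).

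Falls in this group were led by Dnajc6 (auxilin), which strips clathrin coats from vesicles. Dnajc6 was at 9.52, 9.93 and 9.60 in normal tissue and between 7.58 and 9.68 in the cancers, a fall of 1.05 ± 0.26 (adjusted p = 0.00235) that its second probe set gave as -1.05 ± 0.28. The H-ras mutated PhIP cancer was the only cancer not below all normal tissues. Hspa12b, an HSP70 relative known from endothelial cells, was at 7.68, 7.70 and 7.96 in normal tissue and at 7.55 or below in all 33 cancers, a fall of 0.63 ± 0.12 (adjusted p = 0.000294). Its second probe set gave 0.10 ± 0.17, and their mean did not pass (-0.27, adjusted p = 0.0794). All 8 endothelial markers fell alongside, with a median difference of -1.04, and the part of that shift in Hspa12b was not tested. Dnajc22 fell by 0.45 ± 0.16 (adjusted p = 0.0302) and Dnajc7, which passes clients between HSP70 and HSP90, by 0.27 ± 0.09 (adjusted p = 0.0286). Without normal replicate 3 they were at -0.31 (adjusted p = 0.257) and -0.14 (adjusted p = 0.374). Dnajc22 also missed the threshold at -0.43 without replicate 2, and Dnajc7 at -0.28 without replicate 1, where the differences themselves barely moved. Groups that did not overlap on the lower side, Dnajc3 and Hspa12b, are 3.51% of the members, against 4.24% of all genes.

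Without normal replicate 3, 12 of the 18 genes passed, 8 of them higher and 4 lower, while the share of all genes called fell from 34.4% to 23.2%. Without normal replicate 2 that share was also 23.2%, and 17 members passed, 7 higher and 10 lower. With normal replicate 3 and the nonmutated MNU replicate 4 cancer both left out, 12 members and 25.3% of all genes passed. The 6 that dropped out without normal replicate 3 were Hspa5, Hspa2, Dnajc2, Dnajc4, Dnajc7 and Dnajc22. With the brightest probe set followed where each was a feature, 10 genes passed in all 47 alternative settings. Higher were Hspa4, Hspb8, Dnaja4, Dnajb1, Dnajc9, Dnajc10 and Dnajc12, and lower were Dnajc3, Dnajc6 and Dnajc19. The second Dnajb1 probe set did not pass (0.04, limma adjusted p = 0.841). All settings draw on the same normal arrays, and the share of all genes that passed in every setting was not computed.

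**Figure D2:**
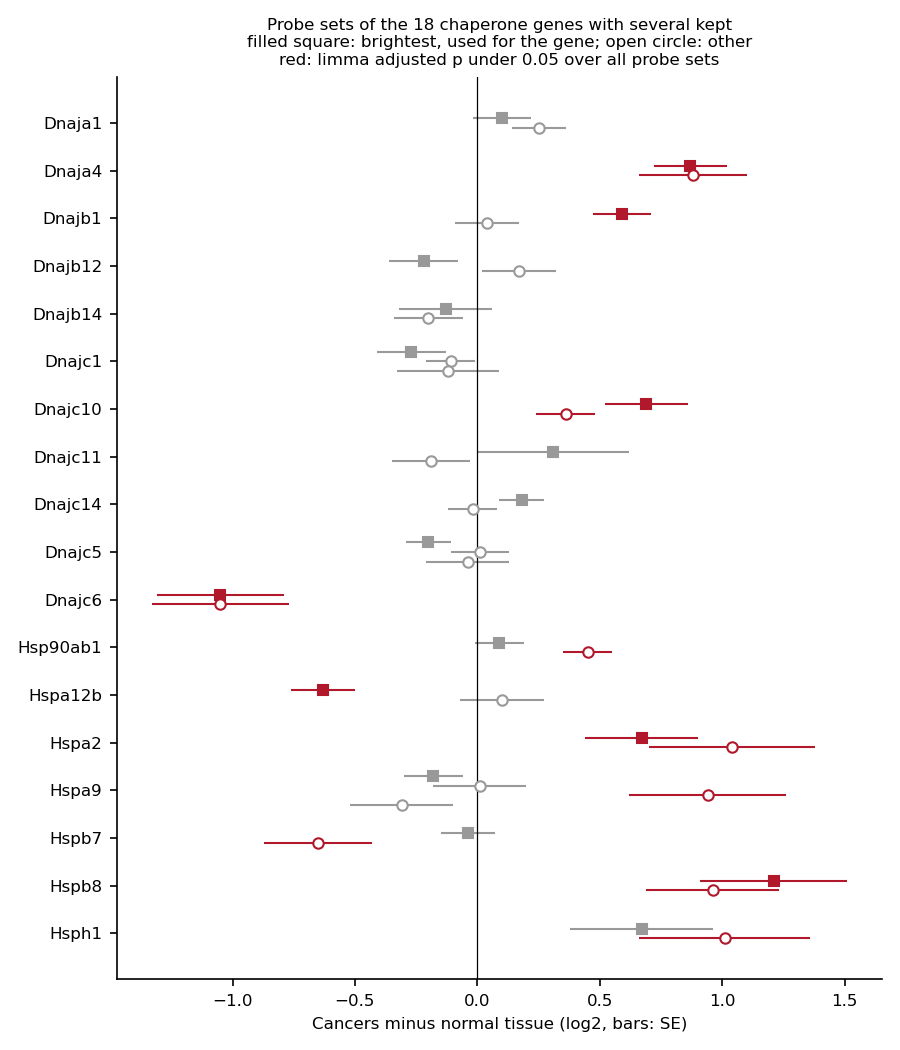
Cancers minus normal tissue in log2 units (bars: SE) for every probe set of the 18 chaperone genes that had several past the filter; filled squares are the brightest probe set, used for the gene, open circles the others, and red marks an adjusted p under 0.05 over all probe sets. In 12 of the 18 genes all probe sets lie on the same side of 0, and Dnajb1, Hsp90ab1, Hspa9 and Hspa12b show the widest gaps in call.

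Of 31 measured co-chaperones and regulators that are no members, 7 rose and 2 fell, with a median of 0.16, while 18% of all genes rose and 16.3% fell. Bag3, the partner of Hspb8, rose by 0.73 ± 0.13 (adjusted p = 8.83e-05). Stip1, which bridges HSP70 and HSP90, rose by 0.52 ± 0.14 (adjusted p = 0.00409), and Tomm70, a mitochondrial import receptor that docks chaperones, by 0.31 ± 0.09 (adjusted p = 0.00998). Bag1, a nucleotide exchange factor of HSP70, fell by 0.83 ± 0.12 (adjusted p = 8.56e-06). Without normal replicate 3 the list held 3 rises and 1 fall, and without replicate 2 it held 4 and 1, where 23.2% of all genes passed in each case.

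Of the 8 subunits of the cytosolic chaperonin TRiC, which folds actin and tubulin, 4 rose and none fell, with a median of 0.27 (18% of all genes rose and 16.3% fell). These were Cct8 (0.78 ± 0.11, adjusted p = 2.19e-06), Cct6a (0.50 ± 0.10, adjusted p = 0.000255), Cct2 (0.39 ± 0.11, adjusted p = 0.00654) and Tcp1 (0.30 ± 0.10, adjusted p = 0.0174). After quantile normalization 7 passed (33.8% of all genes, in either direction). With normal replicate 1 or 2 left out 3 passed (27.9% and 23.2% of all genes).

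Of 26 measured genes of the unfolded protein response that are no members, 11 fell and 1 rose, with a median of -0.33 (16.3% of all genes fell and 18% rose). Asns, an amino acid synthase induced by ATF4, fell by 1.71 ± 0.25 (adjusted p = 5.27e-06), Sec61b, a subunit of the ER translocon, by 0.60 ± 0.12 (adjusted p = 0.000253), and Ppib, an ER prolyl isomerase, by 0.44 ± 0.08 (adjusted p = 0.000232). The gene that rose was Atf6b, an ER stress sensor (0.72 ± 0.16, adjusted p = 0.00106). Without normal replicate 3, 3 genes fell and 1 rose, with a median of -0.20, while calls over all genes dropped to 23.2%; without replicate 2, at the same share of all genes, 10 fell and 1 rose, with a median of -0.36.

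Each group of cancers was also set against the same 3 normal tissues. Because these comparisons share their controls, their values are given side by side only. Spontaneous cancers had 15 members past the threshold (background 23.5% of all genes), radiation cancers 12 (22.5%), nonmutated MNU cancers 15 (22.3%), mutated MNU cancers 15 (29.1%), nonmutated PhIP cancers 12 (24.1%), nonmutated radiation plus MNU cancers 9 (15.9%), mutated radiation plus MNU cancers 14 (25.1%) and radiation plus PhIP cancers 15 (23.1%). Dnaja4, Dnajb1, Dnajc9, Dnajc12, Dnajc3 and Hspa12b were called in all 8 groups with several arrays (the single mutated PhIP cancer was not tested alone), and Hspa4 and Dnajc10 in 7. Such repeated calls lean on the same 3 normal arrays, and the share of all genes called in all 8 groups was not computed.

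Hspa4 was 1.54 ± 0.35 above normal in spontaneous cancers, 1.52 ± 0.33 after radiation, 1.49 ± 0.33 and 1.45 ± 0.31 in nonmutated and mutated MNU cancers, 1.37 ± 0.35 after PhIP and 1.51 ± 0.33 after radiation plus PhIP. In the radiation plus MNU groups it was 0.88 ± 0.33 in nonmutated (adjusted p = 0.0656) and 0.95 ± 0.31 in mutated cancers (adjusted p = 0.0249; 0.96 ± 0.37 and 0.0665 without normal replicate 3). The 4 lowest Hspa4 values of the 33 cancers all came from these groups: replicates 1 and 2 stood at 10.03 and 10.04 (nonmutated) and at 8.96 and 10.38 (mutated), against 10.52 to 11.19 for the others of both groups. Hsph1 followed on the same 4 arrays, at 10.23 and 9.93 and at 9.46 and 9.98, the 4 lowest Hsph1 values of the 33 cancers. Hsp90b1 was also lowest there, at 12.20 and 12.00 and at 11.93 and 12.15. The same arrays hold the 4 highest scores, 16.2 to 19.6, on the fourth principal component of the cancers over all genes, which takes 7.04% of the variance. No component was fixed beforehand, and its sign was set by its correlation with Hspa4, so it is no independent support. Mutated MNU replicate 2 and spontaneous replicate 3 came next at 13.2, with Hspa4 at 10.90 and 11.10. The most extreme score, -29.2, was that of nonmutated MNU replicate 4. The labels give no batch, and what these arrays share beyond their replicate numbers was not tested.

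**Figure D3:**
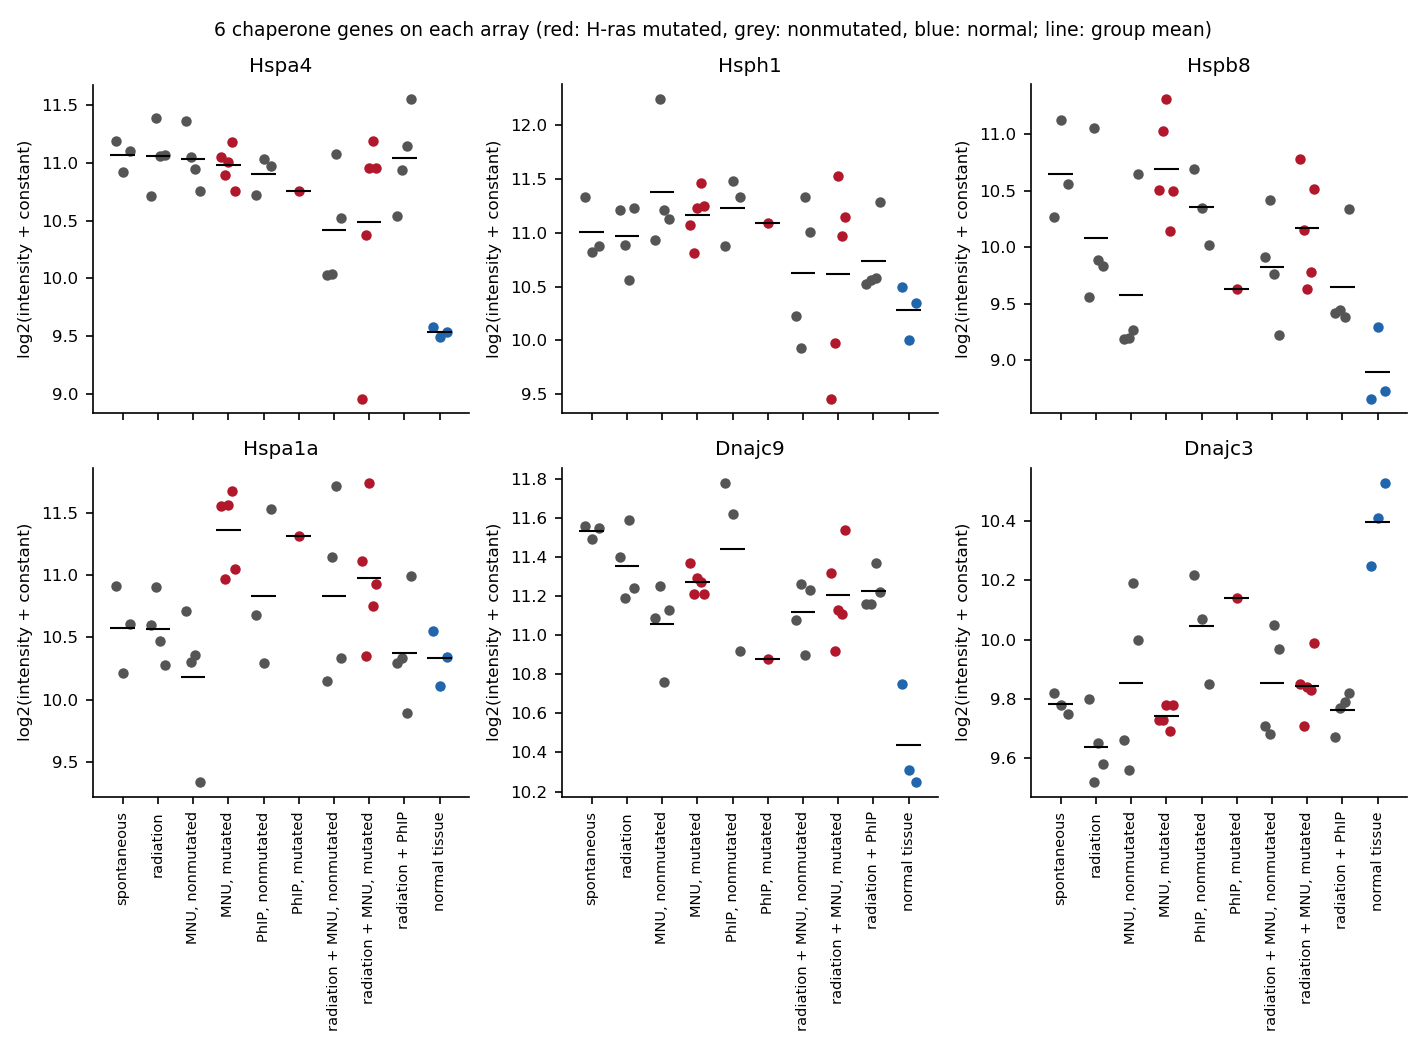
Level of 6 chaperone genes on each of the 36 arrays, as log2(intensity + 42.8), by group; points are arrays, red where H-ras was mutated and blue for normal tissue, and lines are group means. Hspa4 and Hsph1 are low on 2 arrays of each radiation plus MNU group, Dnajc9 lies above and Dnajc3 below the normal tissues in every cancer, and Hspa1a is high in all 5 mutated MNU cancers.

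Hspb8 was the most uneven of the large rises. Its difference from normal was 1.8 ± 0.36 in mutated MNU cancers and 1.76 ± 0.40 in spontaneous cancers. It was 0.69 ± 0.38 in nonmutated MNU cancers (limma adjusted p = 0.194), or 0.33 ± 0.36 without their replicate 4. After radiation plus PhIP it was 0.75 ± 0.38 (limma adjusted p = 0.153). The mean of the skeletal muscle markers was 7.89, 8.70, 7.61 and 7.30 in these groups, in the same order, with overlapping ranges. The part of muscle in the Hspb8 values was not tested. Some members passed in a single group: Hsph1 in nonmutated MNU cancers (1.10 ± 0.37, adjusted p = 0.0332), Hspa1a in mutated MNU cancers (1.02 ± 0.34, adjusted p = 0.0229) and Hspe1 in PhIP cancers (0.58 ± 0.19, adjusted p = 0.0239). Without normal replicate 3 these 3 differences were 1.13, 1.03 and 0.56, about as large, with adjusted p-values of 0.0725, 0.0624 and 0.0678 in limma. Passing in 1 group does not show that the groups differ. Without that array the members past the threshold numbered from 8 to 12 per group, and 10.5% to 21.2% of all genes passed.

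Cancers with mutated H-ras were compared with nonmutated ones within MNU and within radiation plus MNU, and over the mean of both. No member passed in the mean, nor did any of the 11773 genes (0%). With limma, 5 members (8.77%) had an unadjusted p under 0.05, against 7.53% of all genes. The 3 smallest p-values of that limma fit belonged to Hspb8 (0.73 ± 0.23, adjusted p = 0.425), Hspa1a (0.66 ± 0.22, adjusted p = 0.43) and Dnajc4 (0.22 ± 0.09, adjusted p = 0.552), all on the higher side. The median over the members was -0.03.

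Within MNU alone the values were larger, though none passed (0 of 57 members and 0% of all genes). Hspa1a was at 11.55, 10.97, 11.56, 11.67 and 11.05 in the 5 mutated cancers and at 10.71, 10.30, 10.36 and 9.34 in the 4 nonmutated ones. Every mutated cancer thus exceeded every nonmutated one, by 1.18 ± 0.31 on average (limma adjusted p = 0.212). The lowest nonmutated value came from replicate 4, the array with the high 3′ to 5′ ratio, and without it the difference was 0.90 ± 0.32 (limma adjusted p = 0.35). Hspb8 was at 10.51, 11.03, 11.31, 10.14 and 10.50 in mutated and at 9.19, 9.20, 9.27 and 10.65 in nonmutated cancers, a difference of 1.12 ± 0.33 (limma adjusted p = 0.292), and here replicate 4 was the only nonmutated cancer in the mutated range. Without replicate 4 the Hspb8 difference was 1.47 ± 0.32 (limma adjusted p = 0.152). Dnajc4 was at 8.24 to 8.69 in mutated and 7.63 to 8.19 in nonmutated cancers (0.50 ± 0.13, limma adjusted p = 0.224), and without replicate 4 it differed by 0.38 ± 0.13 (limma adjusted p = 0.352). Groups did not overlap for 4 members, Hspa1a, Dnajc4, Dnaja1 and Dnajb2, all higher with mutation (7.02%, against 1.55% of all genes). For Dnajb2 the nearest values were 10.33 (mutated) and 10.31 (nonmutated). On the lower side it was 0 members, against 0.934% of all genes. With limma, 7 members (12.3%) had an unadjusted p under 0.05, against 7.84% of all genes. Most members leaned lower: 39 lay below 0 and 18 above it, with a median of -0.06, while 49.8% of all genes lay above 0.

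Within radiation plus MNU the same genes were close: Hspa1a differed by 0.15 ± 0.31, Hspb8 by 0.34 ± 0.33 and Dnajc4 by -0.05 ± 0.13, and no member had an unadjusted p under 0.05 (3.91% of all genes did). The change of the H-ras difference between the backgrounds was -1.04 ± 0.44 for Hspa1a, -0.78 ± 0.47 for Hspb8 and -0.55 ± 0.19 for Dnajc4, each with an adjusted p of 1 in limma. Without nonmutated MNU replicate 4 these were -0.76 ± 0.43, -1.13 ± 0.44 and -0.43 ± 0.18, each with a limma adjusted p of 0.981. The mean of the luminal markers was 11.20 to 11.36 on the mutated and 10.80 to 11.23 on the nonmutated MNU arrays. Within MNU, 12 of 15 luminal markers (median 0.29) and 10 of 12 skeletal muscle markers (median 0.26) lay above 0 and 10 of 12 macrophage markers below it (median -0.26), none past the threshold. In the mean over both backgrounds all 12 macrophage markers lay below 0 (median -0.45). The part of these lists in the H-ras values was not tested.

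The cause of the cancer was tested over the 6 nonmutated groups with an F test. No member passed in limma, and 1 of all genes did (0.00849%). An unadjusted p under 0.05 was reached by 2 members (3.51%) and by 8.85% of all genes. Hspd1 (adjusted p = 0.507), Dnajc9 (adjusted p = 0.541) and Hspb8 (adjusted p = 0.568) came closest in limma. Hspd1 was at 13.09, 13.20 and 12.83 in the PhIP cancers and at 12.57, 12.58 and 12.60 in the spontaneous ones. Dnajc9 was at 11.56, 11.49 and 11.55 in spontaneous cancers and at 11.09, 11.25, 10.76 and 11.13 in nonmutated MNU cancers. Set against the spontaneous cancers, no member passed in any of the 5 induced nonmutated groups. Of all genes, 0.0255% passed after radiation, 0.0425% after MNU (all lower), 0.00849% after PhIP, 0.0764% after radiation plus MNU (0.068% lower) and 0.0255% after radiation plus PhIP.

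Radiation was compared with no radiation over 4 backgrounds (no chemical, mutated MNU, nonmutated MNU, PhIP). No member and no other gene passed (0%), and 8 members (14%) had an unadjusted p under 0.05 in limma, against 9.9% of all genes. In that limma fit Hsph1 differed by -0.46 ± 0.17 (adjusted p = 0.418), Dnaja4 by -0.23 ± 0.09 (adjusted p = 0.418) and Hspb6, a small heat shock protein of muscle, by -0.22 ± 0.09 (adjusted p = 0.425). The low radiation plus MNU arrays described above enter the Hsph1 value. For Hspb6, all 12 skeletal muscle markers lay below 0 in the same comparison (median -0.46), and their part was not tested. Signs leaned downward: 43 members lay below 0 and 14 above it, with a median of -0.07, while 42.9% of all genes lay above 0. All 8 ER genes and all 5 small heat shock proteins had values of 0 or below, none of them past the threshold.

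Correlation of chaperones was examined over the 33 cancers in 9 pairs, each within 1 compartment, with permutation p-values adjusted over the 9. Of these pairs, 4 were added after the values had been seen. Each permutation p tests only whether the 2 genes are unrelated. Pairs across compartments and pairs of other genes were not examined. The values therefore cannot show that genes of 1 compartment vary together more than other genes do. Hspd1 and Hspe1, which share the promoter region printed above, had r = 0.96 and rho = 0.91 (permutation p = 1e-05, the smallest that 100000 permutations give; adjusted p = 3e-05 for r and 4.5e-05 for rho). Leaving out the 2 arrays farthest from the median of Hspd1 gave r = 0.95, and taking deviations from the group means 0.96. Hspa5 and Hsp90b1, which both carry ER stress elements, had r = 0.82 and rho = 0.83 (permutation p = 1e-05, adjusted p = 3e-05), with r = 0.80 without the 2 farthest arrays and 0.83 within groups. Hspa5 had r = 0.67 with Dnajb11 (rho = 0.62, permutation p = 1e-05, adjusted p = 4.5e-05) and r = 0.56 with Dnajc3 (rho = 0.52, permutation p = 0.00068, adjusted p = 0.00122), J-domain partners of BiP. Without the 2 farthest arrays these were 0.65 and 0.55. With Dnajb9, another ER J-domain protein, Hspa5 had r = 0.37 (rho = 0.34, permutation p = 0.0348, adjusted p = 0.0448 for r and 0.0704 for rho), 0.40 without the 2 farthest arrays, and 0.31 without nonmutated MNU replicate 4 (adjusted p = 0.105).

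Of the cytosolic pairs, Dnajb1 and Hspa1a had r = 0.46 (rho = 0.51, permutation p = 0.00724, adjusted p = 0.0109), 0.55 without the 2 farthest arrays, and 0.37 without nonmutated MNU replicate 4 (adjusted p = 0.0596), where rho was 0.47 (adjusted p = 0.0117). Hsph1 had r = 0.09 with Dnajb1 (rho = 0.15, permutation p = 0.63, adjusted p = 0.63) and 0.25 without the 2 farthest arrays. With Hspa1a it had r = 0.18 (rho = 0.33, permutation p = 0.328, adjusted p = 0.369) and 0.39 without the 2 farthest arrays (adjusted p = 0.0332). Hspa4 and Hsph1 had r = 0.70 (rho = 0.46, permutation p = 1e-05, adjusted p = 3e-05) and 0.50 without the 2 farthest arrays, but r = 0.15 (adjusted p = 0.483) over the 29 cancers other than replicates 1 and 2 of the radiation plus MNU groups. Those 4 arrays were picked after seeing that they were the lowest cancers in both genes, so leaving them out lowers r by the choice itself. The Hspd1 and Hspe1 pair and the Hspa5 and Hsp90b1 pair had r = 0.94 and 0.75 over the same 29 cancers, which is no control for that choice.

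**Figure D4:**
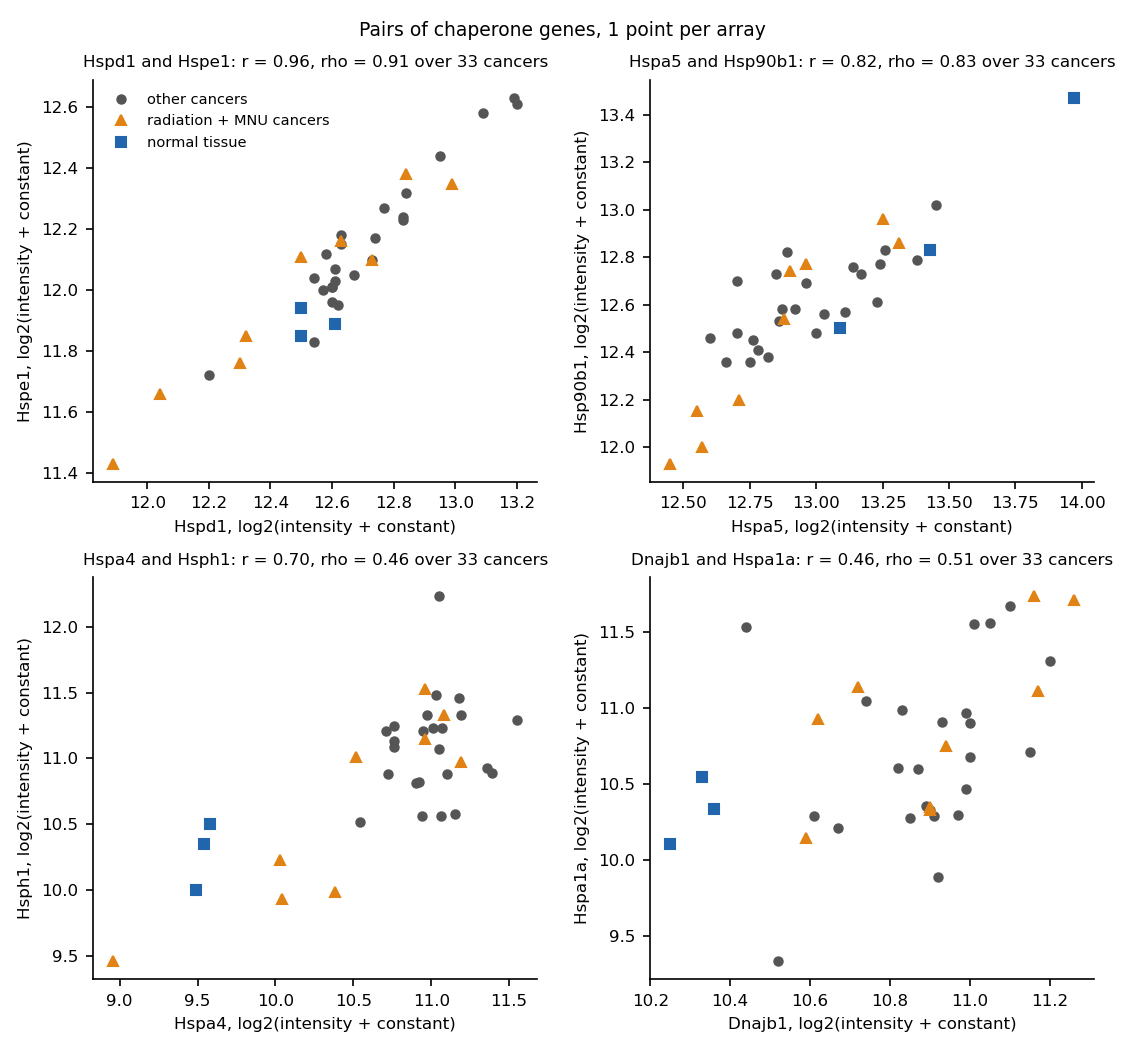
Level of 1 chaperone gene against another on each array, as log2(intensity + 42.8), for 4 pairs; triangles are radiation plus MNU cancers, circles other cancers and squares normal tissue. Hspd1 and Hspe1 lie along a narrow line (r = 0.96 over 33 cancers), whereas in the plot of Hspa4 against Hsph1 4 triangles are the lowest cancers in both genes.

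Spread between cancers of a group, as the SD within groups, had a median of 0.24 over the members and 0.25 over all genes. Dnajb6, a J-domain protein that holds back protein aggregation, varied most (SD 0.81, above 97.5% of all genes). Its levels ran from 8.57 to 11.32 among the 4 nonmutated MNU cancers and from 8.29 to 10.88 among the 5 mutated ones. The 11.32 was replicate 4, whose hexokinase ratio of 12.3 was the highest, and the 10.88 was mutated replicate 1, with the second highest ratio of 4.66. Without both arrays the SD of Dnajb6 was 0.65, above 95.1% of all genes. The part of RNA quality in its spread was not tested. Hspb1 (0.54), Hspb8 (0.53), Hsph1 (0.52) and Hspa1a (0.50) came next among the heat shock proteins. At the other end stood Hsp90ab1 (0.13) and Hspbp1, an exchange factor of HSP70 (0.12), at the 5.18th and 2.56th percentiles of all genes.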

How the data were processed

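The deposited table holds 1 linear intensity per probe set and array, made by the authors and scaled to a common trimmed mean, as the values show; the summarising method and genome build are not given in the sources used here. Per the labels' protocols, biotin-labelled cRNA from 8 µg of total RNA was hybridised. Groups follow the labels. Values were transformed as log2(intensity + 42.8), the 20th percentile of all values, which understates changes of dim genes, and no normalization was added. Probe sets above 125.8 (the 40th percentile) on at least 3 arrays were kept, and the brightest per symbol gave 11773 genes. A limma 3.58.1 model (R 4.3.3) gave each group its own mean, over the 36 arrays together, with Benjamini-Hochberg adjustment over all genes and a threshold of 0.05. The cancers were weighted equally. The fit was tested on simulated data. Pairs used 100000 two-sided permutations (numpy 2.4.6). Alternatives changed the constant, filter, normalization, probe set rule, replicate block, RNA quality covariate and arrays. The number of arrays, 3 of normal tissue, limits the precision. The members and gene lists were chosen with earlier results of these data known. Named were all members past a threshold, the 3 smallest p-values where none passed, measured members of the 4 chaperone lists, and up to 4 genes of each pathway list; single cases beyond this were named after their values were seen. Genes on probe sets with several symbols were not analysed here.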

Additional observations from a re-analysis of the deposited data

Results flagged for a closer look

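Among 138 combinations of a named chaperone gene and a group of 4 or 5 arrays, 7 held an array far from the others of its group; chance gives about 1 in 20. Hspb8 stood at 10.65 in nonmutated MNU replicate 4, where the nearest other array had 9.27, and at 10.34 in radiation plus PhIP replicate 4, where the nearest had 9.44. That radiation plus PhIP cancer was also high in Hsph1, at 11.29 against 10.58. Hspa2 stood at 8.77 in radiation replicate 4, against 7.78. Dnajc4 stood at 8.59 in radiation replicate 2, against 8.12, and at 8.02 in nonmutated radiation plus MNU replicate 3, where the nearest other array had 8.34. Dnajc22 stood at 8.59 in mutated MNU replicate 1, against 8.14.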

How the results depend on the processing

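The 18 calls of cancers against normal tissue were recomputed under 47 alternatives: 36 that leave out 1 array each, 10 other planned ones, and 1 chosen after seeing the data. None of the 18 changed sign, with the brightest probe set followed where each was a feature. Of the 7 called genes with several probe sets past the filter, 6 had all of them on 1 side of 0. The exception was Hspa12b. Leaving out 1 array gave 7 to 11 members higher and 4 to 10 lower, with 7 higher and 10 lower without normal replicate 2 and 4 lower without normal replicate 3, where 23.2% of all genes passed in each case (34.4% with all arrays; 23.2% to 36.5% over all alternatives). With both arrays that stand apart left out, 4 were lower (25.3% of all genes passed). With each probe set taken as a feature, 17 of 79 were higher (32.5% of all probe sets passed in either direction), since genes then count more than once. With the replicate block 11 were higher and 10 lower (33.6% of all genes), and Dnajc30, Dnajc8 and Hsp90b1 joined. Same-numbered arrays of different groups had a mean correlation of deviations of 0.00 (-0.498 to 0.394). A mean over all groups cannot exclude that some same-numbered arrays belong together. The counts for H-ras, cause and radiation were 0 in every setting. Among the pairs, Hspa5 and Dnajb9 fell to r = 0.31 and Dnajb1 and Hspa1a to r = 0.37 without nonmutated MNU replicate 4; Hsph1 and Hspa1a reached r = 0.39 without the 2 farthest arrays; and with radiation plus MNU replicates 1 and 2 left out, a setting chosen after seeing the data, Hspa5 and Dnajb9 had r = 0.38 (adjusted p = 0.0595) and Hspa4 and Hsph1 r = 0.15. The cause of these changes was not tested. Planned pairs with genes whose probe sets carry several symbols were not run. The 3 normal arrays limit the precision of every difference from normal tissue.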
